A study of Mus musculus with 2 samples.

Results

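The genes described here are 178 annotated mouse miRNA genes whose symbols run from Mir6896 to Mir7094. They were chosen by number alone from the 1973 counted genes. The range spans 199 numbers, and 23 of these have no gene among those counted. Small RNA shorter than 30 nt was counted per gene in the forebrain of healthy B6NCrl mouse embryos at 10.5 days of development, with male and female embryos pooled. Replicate 1 came from a pool of 69 embryos and replicate 2 from a separate pool of 51 embryos. There was 1 group, with no treatment, mutant allele or second condition, so differences between the libraries describe the spread between pools. Pooled tissue does not tell which cells a read came from, and fewer cells of a type cannot be told apart from less RNA per cell.

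A mirtron is a miRNA made from an intron. Splicing frees the intron, which is debranched and folds into a hairpin that Dicer can cut, so the Drosha step of ordinary miRNAs is not needed. In a conventional mirtron the hairpin fills the intron. In a tailed mirtron only 1 end of the hairpin is a splice site, and the extra intron sequence at the other end is trimmed away. Because most splice sites carry the same letters, a hairpin that fills an intron usually begins with GU and ends with AG. Known mammalian mirtrons tend to be rare in small RNA libraries.

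Replicate 1 had 3256070 counts on the strand of the gene and replicate 2 had 3574530. Levels are given as CPM, the count scaled to the total of the gene counts, and a single count is worth 0.307 CPM in replicate 1 and 0.280 CPM in replicate 2. A further 30.1% and 28.8% of all reads mapped to several places and were given to no gene. The 4 counted progenitor markers ranged widely, with Mir92b at 18228 ± 1668 CPM (SD, n = 2), Mir9-3 at 339 ± 34, Mir135a-2 at 141 ± 56 and Mir9-2 at 5.58 ± 0.37 CPM. Liver Mir122 was at 10.3 ± 0.68 CPM, above Mir9-2. Reads shared by the Mir9 copies would be among those given to no gene, so the Mir9-2 value need not be its full level. Of the counted muscle miRNAs, Mir206 was at 2.50 ± 0.37 CPM, while Mir1a-1 and Mir133a-1 had 0 counts in both libraries. Of the miRNAs in Hox clusters, which mark more posterior tissue, Mir10a was at 115 ± 26 CPM, Mir10b at 92.6 ± 5.5, Mir196b at 52.3 ± 11 and Mir196a-1 at 0.447 ± 0.237 CPM. Endothelial Mir126a (30480 ± 2051 CPM), red blood cell Mir451a (654 ± 74 CPM) and Mir144 (56.5 ± 4.8 CPM) show that vessel and blood RNA was present. Of the neuron miRNAs, Mir137 was at 431 ± 100 CPM. The copies Mir124a-1, Mir124a-2 and Mir124a-3 were at 1.02 ± 0.14, 4.82 ± 0.30 and 4.54 ± 0.09 CPM, with the same limit from shared reads.

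By annotated position, most of the set has the layout of a mirtron. This describes the annotation and is no test of whether the hairpins are made as mirtrons. In GENCODE M21, 170 of 178 hairpins have at least 1 end within 5 bases of the end of an intron on the same strand. Of these, 15 span an intron from donor to acceptor, the layout of a conventional mirtron. Another 151 end at the 3′ splice acceptor with intron sequence before the hairpin, the layout of a 5′-tailed mirtron, and 4 start at the 5′ splice donor. The acceptor was met to the exact base by 150 of the 151 and by all 15 spanning hairpins. Introns of the 15 spanning hairpins are short, from 67 to 137 bases (median 83). Those of the 151 tailed hairpins run from 77 to 36269 bases (median 488), with 7 to 36205 bases (median 421) before the hairpin. The other 8 do not meet the limit of 5 bases. Mir7036b (9 counts in replicate 1 and 13 in replicate 2) lies inside an intron of Add1 away from its ends. It also overlaps an exon of a transcript on the same strand. Mir7025 lies in an exon of Pdgfra. The other 6 (Mir6901, Mir6903, Mir6904, Mir6914, Mir6950 and Mir7029) cross the end of an intron by more than 5 bases. With a limit of 10 bases, 176 of the 178 hairpins have an end at an intron end. Below, mirtron stands for any of the 178 genes, these 8 included. The hosts are 174 genes, and 177 of the 178 mirtron genes sit in a protein-coding host. Arap3, Cmip, Skiv2l and Srebf1 each hold 2.

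RefSeq (GRCm38.p6, the same assembly as mm10) holds the hairpins of 161 of the 178 genes, all at the same coordinates. The following hairpins show the splice letters in the conventional mirtrons with the most counts. Capitals mark the first and last pair of bases of the intron.
Mir6944 hairpin: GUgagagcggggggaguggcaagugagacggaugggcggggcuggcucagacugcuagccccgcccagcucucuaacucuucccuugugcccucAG
Mir7018 hairpin: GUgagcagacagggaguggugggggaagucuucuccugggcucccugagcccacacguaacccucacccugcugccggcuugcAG
Mir6958 hairpin: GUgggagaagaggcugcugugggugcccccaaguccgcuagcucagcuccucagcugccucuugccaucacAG

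Hairpins tailed at the 5′ end meet a splice site only at the acceptor. The 3 below are the tailed mirtrons on which the results turn: Mir7083 with the most counts of this layout, Mir6935 in the actin gene Actg1, and Mir7069, which differed between the libraries. Capitals mark the acceptor AG.
Mir7083 hairpin: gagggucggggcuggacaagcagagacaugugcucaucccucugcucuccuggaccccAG
Mir6935 hairpin: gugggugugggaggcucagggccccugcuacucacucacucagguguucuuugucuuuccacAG
Mir7069 hairpin: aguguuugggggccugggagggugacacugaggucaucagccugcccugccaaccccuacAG

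Over the whole set, 149 of 161 hairpins (92.5%) end in AG, against 10.5% of the 844 other RefSeq mouse hairpins. A hairpin that ends at a splice acceptor carries its letters, so this share follows from the positions and adds no separate support. Of the 12 spanning hairpins with a sequence, 10 begin with GU and all 12 end in AG. The exceptions are Mir7088, which begins with GC, and Mir7082, which begins with GA before the start of its intron. The arms are also uneven in composition. The 155 annotated 3p products have a median of 71.4% pyrimidines, against 54.5% in 576 other 3p products, and 78.1% of them end in AG, against 13.4%. The 157 annotated 5p products have a median of 45.5% G, against 27.3% in 570 others. Of 153 3p products, 114 end at the very last base of the hairpin, so their last letters are those of the hairpin. The deposited counts are per gene, so they do not tell the 5p from the 3p product.

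Seeds, the bases 2 to 8 by which a miRNA pairs with its targets, were mostly private. The 312 annotated products have 287 distinct seeds. Of these, 17 are shared by 2 mirtron genes and 4 by 3. The shared seed with the most counts joins 3 mirtrons of different hosts, shown with the seed in capitals.
miR-7018-3p: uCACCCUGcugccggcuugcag
miR-7068-3p: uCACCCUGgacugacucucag
miR-7023-3p: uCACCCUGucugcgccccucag
Their genes Mir7018 (host Hspg2), Mir7068 (host Cherp) and Mir7023 (host Pik3cd) had 50 counts together over both libraries. Of the 287 seeds, 39 also occur in a RefSeq miRNA numbered outside the range. An example chosen after its values were seen is miR-7002-3p, which has the seed of miR-218-5p, a miRNA of motor neurons.
miR-7002-3p: uUGUGCUUccccuugccag
miR-218-5p: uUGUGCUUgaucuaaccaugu
Mir7002, in an intron of the splicing helicase gene Aqr, had 1 count in replicate 1 and 2 in replicate 2.

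The mirtrons were detected widely, in the sense of any count, but at very low counts. Counts per gene do not tell a miRNA product from another short piece of the host RNA, and this was not tested. At least 1 count in either library was found for 125 of the 178 genes (70.2%), against 37.5% of all counted genes. Replicate 1 had counts for 109 and replicate 2 for 107, and 91 (51.1%) had counts in both, against 31.3% of all counted genes. Counts in replicate 1 only were seen for 18 and in replicate 2 only for 16. The other 53 had no count, which allows up to 3 counts, or 0.921 CPM in replicate 1 and 0.839 CPM in replicate 2. By contrast, just 8 genes (4.49%) reached 10 counts in each library, against 19.5% of all counted genes.

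Most of the detected mirtrons rested on a handful of reads. Of the 125, 48 had 1 to 3 counts over both libraries, 37 had 4 to 9, 29 had 10 to 19 and 11 had 20 or more. The median over all 178 was 2.5 counts, against 0 over all counted genes, while among genes with any count the medians were 5 for the mirtrons and 32 for all counted genes. The 48 genes with 1 to 3 counts lie at or under the limit that a count of 0 allows.

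**Figure D1:**
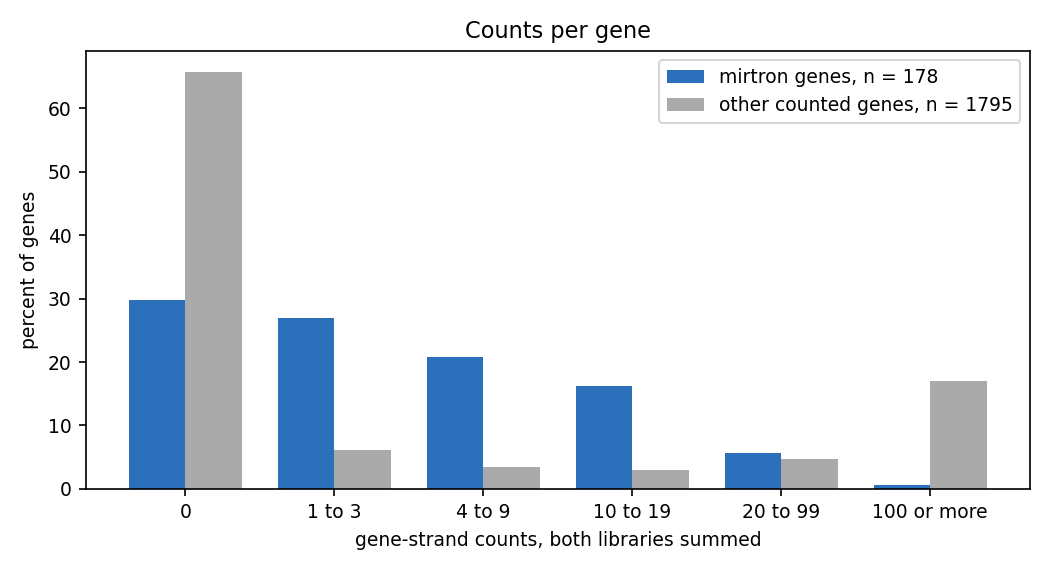
Percent of genes (vertical axis) in classes of the gene-strand count summed over both libraries (horizontal axis), for the 178 mirtron genes (blue) and the 1795 other counted genes (grey). The mirtrons fill the classes from 1 to 19 counts, while only 1 of them reaches 100 counts.

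All mirtrons together held 842 counts in replicate 1 and 837 in replicate 2. Their share of the gene counts was 0.0259% in replicate 1, with an exact 95% Clopper-Pearson interval from 0.0241 to 0.0277, and 0.0234% in replicate 2 (from 0.0219 to 0.0251), with a mean of 0.0246% ± 0.0017 (SD, n = 2). The set thus makes up 178 of 1973 genes but a very small part of the counted reads. Copies made in PCR are not separate molecules, so these limits hold for counting error alone.

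Mir6944 stood far above the rest. It fills a 96-base intron of Dbn1, which encodes drebrin, an actin-binding protein of growing neurites and dendritic spines. The gene (ENSMUSG00000098341.1) lies on the minus strand at chr13:55477681-55477776 (mm10). It had 341 counts in replicate 1 and 364 in replicate 2, or 105 and 102 CPM, a mean of 103 ± 2.0 CPM (SD, n = 2). The libraries were nearly equal, with a log2 ratio of replicate 1 over replicate 2 of 0.01 ± 0.11 (counting standard error) and an adjusted p of 0.99 in the exact binomial test. Mir6944 alone held 40.5% of the mirtron counts in replicate 1 and 43.5% in replicate 2. Its mean CPM was 19 times that of the next gene, and it ranked 216th of 1973 counted genes by mean CPM, while the next mirtron ranked 359th. Without Mir6944 the share of the set was 0.0143%.

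The other 7 genes with at least 10 counts in each library were of similar level. Mir7083, in Dock6, a gene for an activator of Rac and Cdc42, had 20 and 17 counts in replicates 1 and 2. Mir6951, in the polyamine regulator gene Azin1, had 13 and 22 counts. Mir6900, in Ndufa10 of respiratory complex I, had 12 and 20. In both of these genes the higher value was that of replicate 2.

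Mir6935, in the cytoplasmic gamma-actin gene Actg1, had 15 and 17 counts in replicates 1 and 2. Mir7018, in Hspg2 for the basement membrane protein perlecan, had 16 and 11 counts. Mir6958, in Dennd6b, had 15 and 11 counts. Mir6897, in Uggt1 for a folding sensor of the endoplasmic reticulum, had 13 and 10. These 7 genes had mean levels between 3.40 and 5.45 CPM, and their counting intervals overlapped, so their order is not resolved. Per 100 bases of hairpin the mean was 108 CPM for Mir6944 and 9.08 CPM for Mir7083, again the highest and the next. RefSeq sequences for Mir6951 and Mir6900 were not used here.

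**Figure D2:**
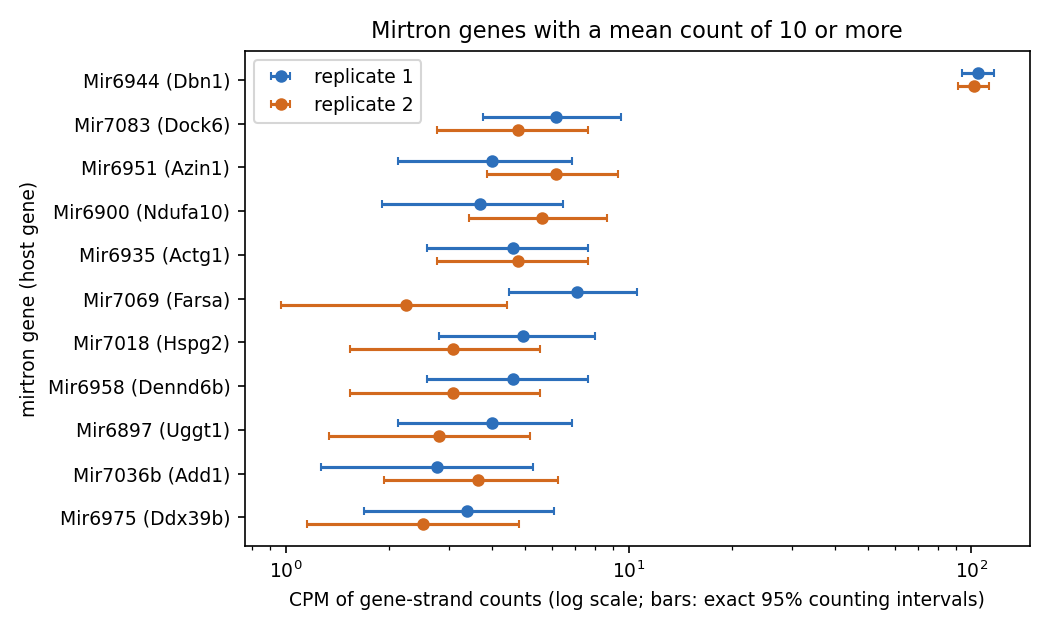
CPM of gene-strand counts (horizontal axis, log scale) in replicate 1 (blue) and replicate 2 (orange) for the 11 mirtrons with a mean count of 10 or more, each with its host gene. Among these, Mir7036b does not lie at an intron end. Bars are exact 95% counting intervals; Mir6944 lies near 100 CPM, and the intervals of the other 10 genes overlap except between the libraries of Mir7069.

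Each of the 8 genes lies in an intron of a protein-coding gene on the same strand, Mir6944, Mir7018 and Mir6958 as conventional and the other 5 as 5′-tailed mirtrons. In mm10 the tailed genes, all on the minus strand, are Mir7083 (chr9:21809941-21810000), Mir6951 (chr15:38490473-38490547), Mir6900 (chr1:92464483-92464542), Mir6935 (chr11:120347350-120347413) and Mir6897 (chr1:36144252-36144313). Mir7018 lies at chr4:137538286-137538370 on the plus strand and Mir6958 at chr15:89185465-89185537 on the minus strand. Mir6958 and Mir6935 also overlap an exon of another transcript on the same strand, and counts there could come from such a transcript, which was not tested. Over the whole set, 36 genes lie in both an intron and an exon of some transcript, and 27 of them (75%) had a count, against 97 of the 141 genes (68.8%) in introns only.

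Spanning hairpins were detected about as often as tailed ones, and a larger share of them was well counted. Counts were found for 11 of 15 conventional mirtrons (73.3%) and for 104 of 151 tailed at the 5′ end (68.9%). The median summed count was 7 and 2 respectively, and 3 of 15 (20%) against 5 of 151 (3.31%) reached 10 counts in each library. Mir7068 in Cherp had 12 counts in replicate 1 and 7 in replicate 2, and Mir7070 in Fbxw9 had 8 in each. Of the 4 hairpins that start at a donor, Mir6977 in the receptor phosphatase gene Ptprs had 9 and 6 counts, Mir6936 in Sirt7 had 5 and 9, Mir6927 in Mllt6 had 6 and 3, and Mir6973b in Gfra4 had none. With so few conventional mirtrons the difference between layouts is a description and was not tested.

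Among the 5′-tailed mirtrons, a similar share had a count in each class of intron length, while most of the well counted ones lay in long introns. Counts were found for 31 of 46 in introns under 200 bases (67.4%), 40 of 57 in introns of 200 to 1000 bases (70.2%) and 33 of 48 in longer introns (68.8%). The median summed counts of these classes were 2, 3 and 2. At 10 counts in each library there were 1 of 46 (2.17%), 0 of 57 and 4 of 48 (8.33%) respectively, and these differences were not tested. Among the 4, Mir6951 lies in an intron of 1003 bases, at the edge of its class.

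**Figure D3:**
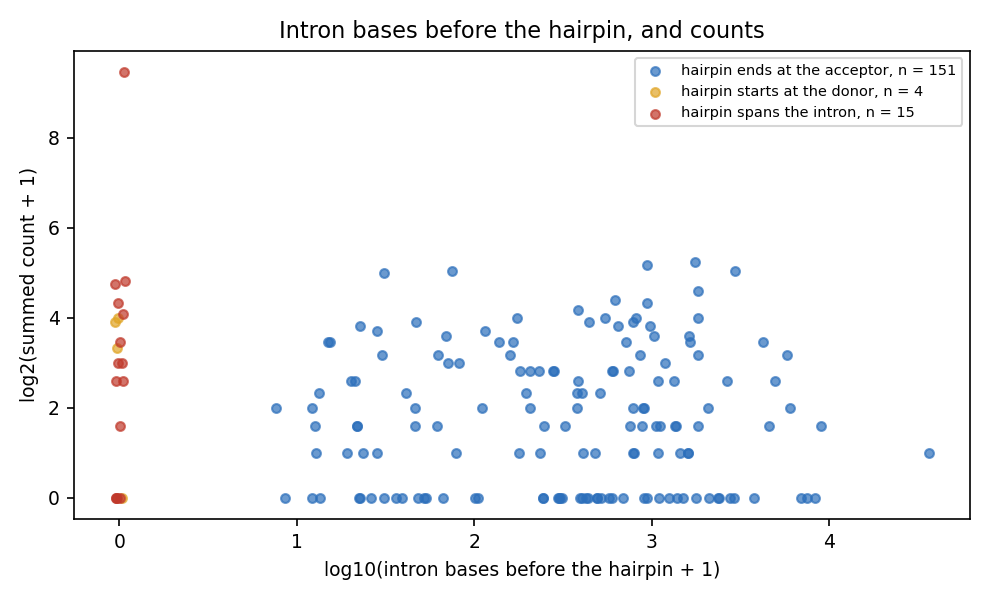
Summed count of each of 170 mirtrons as log2(count + 1) (vertical axis) against the intron bases before its hairpin as log10(bases + 1) (horizontal axis), with small sideways jitter. Red points fill their intron, gold points start at the donor and blue points end at the acceptor; blue points with and without counts lie along the whole axis, and the highest point is Mir6944.

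Host genes were sorted into 5 groups by what they are known for. The groups were written after the counts were seen, hold 50 of the 178 mirtrons, and are a description only. RNA of the hosts was not measured in these libraries.

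Hosts known from immune cells held mirtrons that mostly lacked counts. Of 14 such mirtrons 4 had a count, with 8 counts in replicate 1 and 4 in replicate 2 over the whole group. Those in Csf1r (the macrophage growth factor receptor), Lat (a T cell adaptor), Lta and Ltb (lymphotoxins), Cpa3 and Mcpt8 (proteases of mast cells and basophils), Grap2, Bin2, Nlrc5 and Ighv1-5 had none. The 4 with counts lie in Adam8, Pik3cd, Sh2b3 and Il10ra, none above 5 counts. The mirtron in Ighv1-5, Mir7094-2, is uncertain because its symbol marks a gene of several loci.

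None of the 6 mirtrons in hosts known from liver, pancreas or muscle had a count. These hosts are the complement genes C3 and Cfb, Mst1, the pancreatic genes Clps and Ctrb1, and the muscle myosin gene Myh3. Mir6923 in Myh3 and Mir7088 in Mst1 fill their introns, as do Mir6974 in Lta and Mir7058 in Lat. They are the 4 conventional mirtrons that had no count.

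Hosts known from neurons gave a mixed picture. Besides Mir6944 in Dbn1, Mir7066 in the brain matrix gene Ncan had 2 counts. The mirtrons in Camk2a, Ptpn5 and Mapk8ip1 had none.

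Hosts with roles in handling RNA nearly always held a mirtron with counts, while the few cell division hosts were near the hosts in no group. Of 6 mirtrons in cell division genes 5 had counts (83.3%), all in both libraries. They were Mir7089 in the cell cycle phosphatase gene Cdc25a (7 counts in replicate 1 and 8 in replicate 2), Mir6965 in Ccnf (5 and 9), Mir6960 in Troap (12 and 3), Mir7081 in the maintenance methyltransferase gene Dnmt1 (6 and 4) and Mir7053 in the DNA polymerase gene Pold1. The exception was the mirtron in Mybl2. Of 19 mirtrons in genes of translation and RNA processing 18 had counts (94.7%). Among them were Mir7069 in the phenylalanyl-tRNA synthetase gene Farsa, Mir6975 in the splicing helicase gene Ddx39b (11 and 9) and Mir7079 in the ribosomal protein gene Rpl13 (6 and 7). In the remaining 128 mirtrons, 96 had counts (75%), with a median of 3.

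**Figure D4:**
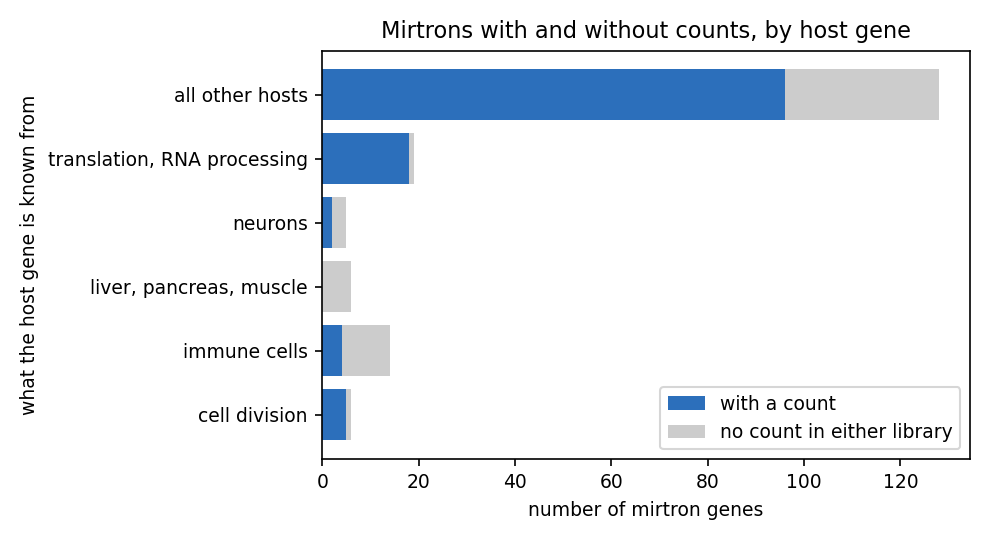
Number of mirtron genes (horizontal axis) with a count in either library (blue) and with none (grey), by what the host gene is known from (vertical axis); the groups were made after the counts were seen. All 6 mirtrons of liver, pancreas and muscle hosts are grey, against 1 of 19 in genes of translation and RNA processing.

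The pools agreed in Mir6944 and scattered below it. Between libraries Spearman's rho was 0.715 over the 178 mirtrons, and Pearson's r on log2(CPM + 1) was 0.804, or 0.727 without Mir6944. These are across genes, which are not independent replicates. The summed log2 ratio of replicate 1 over replicate 2 was 0.11 ± 0.07 (counting standard error).

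Of the 11 mirtrons with a mean count of 10 or more, 1 differed between the libraries by the exact binomial test at an adjusted p of 0.05, against 43.4% of all 401 genes tested. Most of those 401 genes have many more reads. Among the 33 other tested genes with 20 to 37 summed counts, the range of the mirtrons below Mir6944, 2 were called. The gene called was Mir7069 (ENSMUSG00000098331.1), at chr8:84867947-84868008 on the plus strand, in a 90-base intron of Farsa. It had 23 counts in replicate 1 and 8 in replicate 2, and the counting intervals of the libraries, in CPM, did not overlap (4.48 to 10.6 and 0.966 to 4.41). The log2 ratio was 1.57 ± 0.58 (counting standard error), with an adjusted p of 0.00991 in the exact binomial test. The test takes account of counting error alone, and it sets pool against pool, not condition against condition.

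For the other 9 tested mirtrons below Mir6944, log2 ratios ran from −0.64 for Mir6951 to 0.62 for Mir7018, and no adjusted p was below 0.39 in the exact binomial test. A p that misses the threshold at such counts does not show that the libraries had equal levels. Lower ratios besides Mir6951 were those of Mir6900 (−0.61), Mir7036b (−0.41) and Mir6935 (−0.07). Higher ones besides Mir7018 were those of Mir6958 (0.53), Mir6897 (0.46), Mir6975 (0.37) and Mir7083 (0.33).

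**Figure D5:**
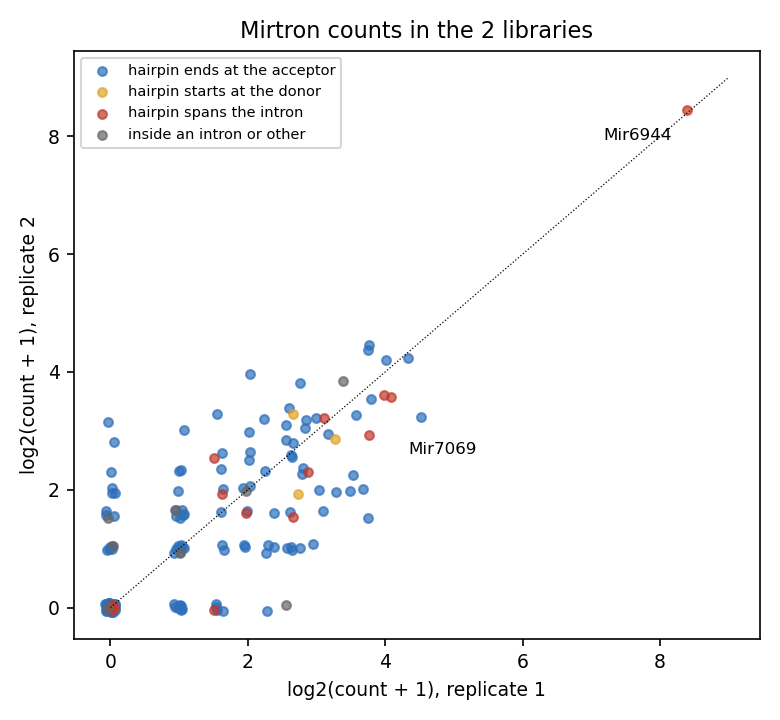
Counts of the 178 mirtrons as log2(count + 1) in replicate 1 (horizontal axis) and replicate 2 (vertical axis), with slight jitter and the line of equal counts dotted. Mir6944 lies on the line with 341 and 364 counts, and Mir7069 lies below it with 23 and 8.

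Mirtrons with other numbers give a scale for these levels. Mir877, which fills an intron of Abcf1, had 777 counts in replicate 1 and 840 in replicate 2, or 237 ± 2.6 CPM (SD, n = 2). Mir1981 in Marc2 had 137 ± 11 CPM, Mir702 in Plod3 had 98.7 ± 6.3 CPM, and Mir1224 in Vwa5b2 had 6 and 1 counts. By annotated position Mir877, Mir1981 and Mir1224 span an intron, while Mir702 was not placed at an intron end. Mir6944 thus lay between Mir702 and Mir1981 in mean CPM. It was above Mir702 in both libraries, by a mean difference smaller than the SD of Mir702 and larger than its own SD.

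Genes of the same layout also occur outside the range of numbers. Outside the range, 39 counted genes also have a hairpin end at an intron end. Counts were found for 30 of these (76.9%), close to the mirtrons described here, and 10 of them (25.6%) reached 10 counts in each library. That second share is above the 4.49% of the mirtrons, and the 39 include miRNAs of the imprinted Mirg host such as Mir382. Of the 637 genes outside the range that lie inside an intron away from its ends, 301 (47.3%) had a count and 194 (30.5%) reached 10 in each library.

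Against other ranges of miRNA numbers, the set was detected nearly as often as the lowest numbers, yet had the smallest share of genes with 10 counts in each library. Of 547 genes from Mir1 to Mir3056, 394 (72%) had a count and 305 (55.8%) reached 10 in each library. The 50 genes from Mir3057 to Mir3113 had counts in 47 (94%), and 23 (46%) reached 10 in each. Of 172 genes from Mir3114 to Mir6895, 53 (30.8%) had a count and 12.2% reached 10 in each. Of 95 genes with numbers above Mir7094 the values were 55.8% and 11.6%. At the edges of the range, the nearest counted genes outside it, Mir6769b and Mir7115, had 2 and 0 counts over both libraries, and Mir6897 and Mir7094-2 inside it had 23 and 0.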

How the data were processed

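Small RNA reads from 2 libraries of 1 group were analysed. The deposited files hold raw counts per gene on either strand, on the strand of the gene and on the opposite strand, in mm10 per the labels and with genome annotation M4 per the authors' file notes. Aligner and counter: not given in the sources used here. The gene-strand count was used. Opposite-strand counts came to 1 over all 178 genes. The 4 tallies that name no gene were left out; unmapped reads were 24.6% and 25.4% of all reads and reads outside the listed genes 5.98% and 7.43%. Of 1973 identifiers 1894 matched GENCODE M21, and introns came from all its transcripts of genes other than small RNAs.

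CPM used the total of the gene counts. Ratios used TMM factors of edgeR 4.0.16 (R 4.3.3), taken over the 401 genes with a mean count of 10, and a pseudocount of 0.5. edgeR's quasi-likelihood test was not used, since 1 group leaves no contrast. An exact binomial test, two-sided, compared the libraries, with Benjamini-Hochberg adjustment over 401 genes. Tested on simulated data for that comparison over 401 genes, it called 90.5% of 2-fold changes and 0.995% of unchanged genes. At 20 to 37 counts it called 22.2% of 2-fold changes. The simulated counts held counting error alone, with no spread between pools. These shares are thus not the error rates in the real libraries, where the test called 43.4% of the 401 genes. The labels number the libraries as biological replicates from separate pools. Other steps ran in Python 3.11.15 with pandas 2.3.3, scipy 1.17.1 and matplotlib 3.10.9.

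Genes named are those with 10 counts in each library, the 10 highest in CPM, the extreme ratios, the edges of the range and 4 mirtrons with other numbers. Others were named after their values were seen. The genes, lists and tests were chosen with earlier results of these data known. An item withheld from the text is not reported here.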

Additional observations from a re-analysis of the deposited data

How the results depend on the processing

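Detection of the mirtrons held within 1.5 times its value under each alternative tried, from 89 with 3 or more counts over both libraries to 125, with 108 at 2 or more counts, 107 without replicate 1 and 109 without replicate 2. The number with many counts depends on the minimum. With 5 counts in each library it was 26 in place of 8, and with 20 it was 1. It was 11 in replicate 2 alone (without replicate 1) and 15 in replicate 1 alone (without replicate 2). The summed share of 0.0246% was 0.0203% with reads mapped outside the listed genes in the total, 0.0143% without Mir6944, and 0.0234% to 0.0259% in single libraries. The summed log2 ratio of 0.11 was 0.19 without Mir6944, an alternative chosen after seeing the data. When each gene with a count was tested, the binomial test called 3 of 125 mirtrons, against 166 of all 739 genes tested. The 3 were Mir7069, Mir6945 with 13 and 2 counts in replicates 1 and 2, and Mir7067 with 0 and 8. Asking for a mean count of 20 left only Mir6944 to test. There 0 mirtrons were called, against 171 of all 351 genes tested, with 0 mirtrons also at an unadjusted p under 0.05. Where Mir7069 was tested, its adjusted p lay between 0.00918 and 0.0182. The 15 spanning hairpins became 14 with a tolerance of 0 bases, 18 with 10 bases and 15 with coding transcripts only. The 170 with an end at an intron end became 168, 176 and 169 in the same order. Depth limits these values, since 101 of the 178 genes had 3 counts or fewer over both libraries.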
